A study of Mus musculus with 24 samples.

Results

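Wild-type mouse neural progenitor cells (NPC) were compared with wild-type mouse embryonic stem cells (mESC), the cultures from which such progenitors are derived. The comparison rests on 4 RNA sequencing libraries, 2 from each cell type, of the 24 in the series. The other 20 come from cells with a knockout (KO) of Htt, the gene of huntingtin, or with a heterozygous knock-in of 20, 50, 92 or 111 CAG repeats in it (Q20, Q50, Q92 and Q111), in both cell types, and the Q92 allele is also given as 89 CAG in the culture description. The wild-type cells carry no change at Htt per their labels, and the line they came from is not named there.

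The mESC were grown with serum and leukaemia inhibitory factor (LIF) on gelatin with a layer of irradiated mouse embryonic fibroblasts as feeder. For NPC, cells were plated without LIF in the serum-free medium N2B27 for 7 days, moved to laminin, and then passaged in a neural stem cell medium with FGF and EGF. The 2 libraries of a group are called biological samples, but nothing states that they came from separate cultures. The error behind a p-value here is the spread between libraries, pooled in part over genes. It may not include the spread between cultures. The values were deposited in 1 table for each cell type. Genes in both tables were scaled together, yet cell type, table and culture medium go together in this design and cannot be told apart.

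Embryonic stem cells keep the ability to form all tissues of the embryo through a network of transcription factors led by Oct4 (Pou5f1), Nanog and Sox2, which LIF supports through STAT3. In N2B27 many of them turn into neuroepithelial cells, and FGF and EGF then keep a population that divides and resembles radial glia, the stem cells of the developing brain. Such progenitors exchange one member of many gene families for another, among them POU and Sox factors, subunits of the BAF chromatin remodeller, and RNA-binding regulators of splicing.

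Depth was 61807627 and 59036760 reads in the mESC libraries and 55557667 and 84575732 in the NPC libraries. Of 15572 genes in both tables, 13031 had at least 1 CPM (reads scaled to library size, per 1000000) in at least 2 of the 4 libraries and were tested. A gene under 1 CPM in both libraries of one cell type passed only if both of the other reached it. For such genes the filter itself set the direction of the change. The change of a gene is the NPC minus mESC difference of log2(CPM + 1), a scale that makes changes of weakly expressed genes look smaller than they are. Its median standard error (SE) was 0.40. At an adjusted p under 0.05, 4243 genes (32.6%) differed: 2299 were higher in NPC (17.6%) and 1944 were lower (14.9%). Among them, 2289 rose and 1923 fell by 2-fold or more, and 367 rose and 259 fell by 16-fold or more. The median change of all genes tested was 0.04. In 9213 genes (70.7%) the libraries of one cell type lay wholly above those of the other, so that non-overlap alone is the common state here.

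The number of calls depended on single libraries. It was 2426 without mESC replicate 1, 2224 without mESC replicate 2, 2365 without NPC replicate 1 and 3568 without NPC replicate 2, and 1583 of the 4243 genes were called whichever library was left out. All 4243 kept their direction in these 4 fits, but they were chosen on the same libraries, so this is a weak test of them. With all 24 libraries sharing an estimate of the spread, 7011 genes were called.

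**Figure D1:**
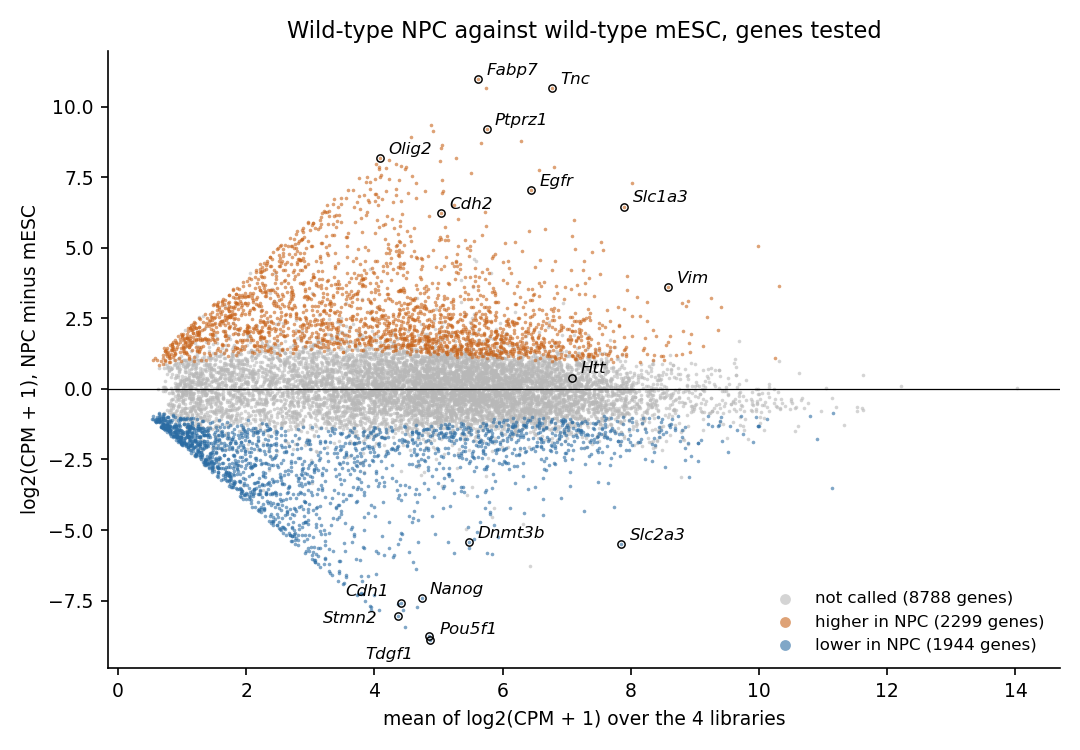
Change of each of the 13031 genes tested (vertical axis, NPC minus mESC on the log2(CPM + 1) scale) against its mean level over the 4 libraries (horizontal axis); colours mark genes called higher (2299) or lower (1944) in NPC. Fabp7 and Tnc lie at the top, Pou5f1 and Tdgf1 at the bottom, and Htt lies close to 0.

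Genes with a single exon need care in these tables. A gene was counted as single-exon when the exons of all its annotated transcripts merged into 1 block. Genes with a spliced transcript can therefore be among them. Among 150 such genes that were tested, 22 (14.7%) were listed at 0 in one library and at 10 CPM or more in the other library of the same group. The same held for 3 of 12881 genes with 2 or more blocks (0.0233%). The cause was not tested. By this count, the list members Pou3f1, Pou3f4, Sox1, Sox12, Sox21, Ndn and Hoxb2 among those tested are single-exon. So are Sox4, Pou3f3, Klhl9, Rhob, Rrs1 and Pcbp1, which are listed in 1 table alone. Sox2, Foxd3 and Sox11 are not analysed here.

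The core pluripotency genes fell together. All 10 members tested were lower in NPC, against 14.9% of all genes tested, with a median change of -6.35. Members under 1 CPM in both NPC libraries, such as Pou5f1, could pass the filter only through mESC. Pou5f1, which encodes Oct4 (GRCm38 chr17:35506018-35510772), had 417 and 864 CPM in mESC and 0.349 and 0.401 CPM in NPC, a change of -8.77 (SE 0.47, adjusted p = 0.0011). Its NPC values rest on 20 and 33 reads. Nanog had 282 and 425 CPM in mESC and 1.62 and 0.595 in NPC, a change of -7.41 (SE 0.45). Sall4, a zinc finger partner of Oct4, had 140 and 456 CPM against 0.105 and 0.134. Tdgf1, which encodes the Nodal co-receptor Cripto, fell the most of all genes named, by 8.89 (SE 0.67), and its mESC libraries stood apart from each other at 1243 and 326 CPM. The ligand Nodal itself had 59.8 and 60.9 CPM in mESC and 0.261 and 0.182 in NPC. Its antagonists Lefty1 and Lefty2 also fell, by 4.91 and 5.91. The summed level of the 10 genes was 2554 and 2477 CPM in mESC and 5.51 and 3.77 CPM in NPC. Of the 10 calls, only that of Lefty1 was lost when a library was left out, at an adjusted p of up to 0.076 without NPC replicate 1 or NPC replicate 2. In bulk samples, fewer cells of a type and less RNA per cell cannot be told apart.

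Of 12 genes tested that mark the naive state, the state closest to the early embryo, 9 fell and 3 were not called. Over all genes tested 14.9% fell. Fbxo15 (254 and 328 CPM against 0.593 and 0.352) and Tfcp2l1 (117 and 242 against 0.157 and 0.0851) fell by 7.62 and 7.24. Esrrb, a nuclear receptor, fell by 5.78 (SE 0.59). It kept 4.18 CPM in NPC replicate 2 against 0.889 in NPC replicate 1, and Nr5a2 likewise had 4.59 against 0.959. Klf4 fell the least, by 2.51 (adjusted p = 0.0432): it had 16.4 and 67.5 CPM in mESC and still 5.86 and 4.36 in NPC, and its call was lost without mESC replicate 2 or either NPC library, at an adjusted p of up to 0.138. That of Nr5a2 was lost without mESC replicate 2 (adjusted p = 0.0614). Jam2 and Gbx2, not called, had changes of 0.95 and 1.63.

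Several more pluripotency genes are listed in the mESC table alone, so no change can be given for them. Dppa5a had 1330 and 864 CPM in the mESC libraries, L1td1 530 and 1026, Zfp42 (Rex1) 308 and 456, and Dppa4 155 and 240. Tdh, the threonine dehydrogenase of mouse stem cells, had 275 and 397 CPM, and Dnmt3l 262 and 501.

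**Figure D2:**
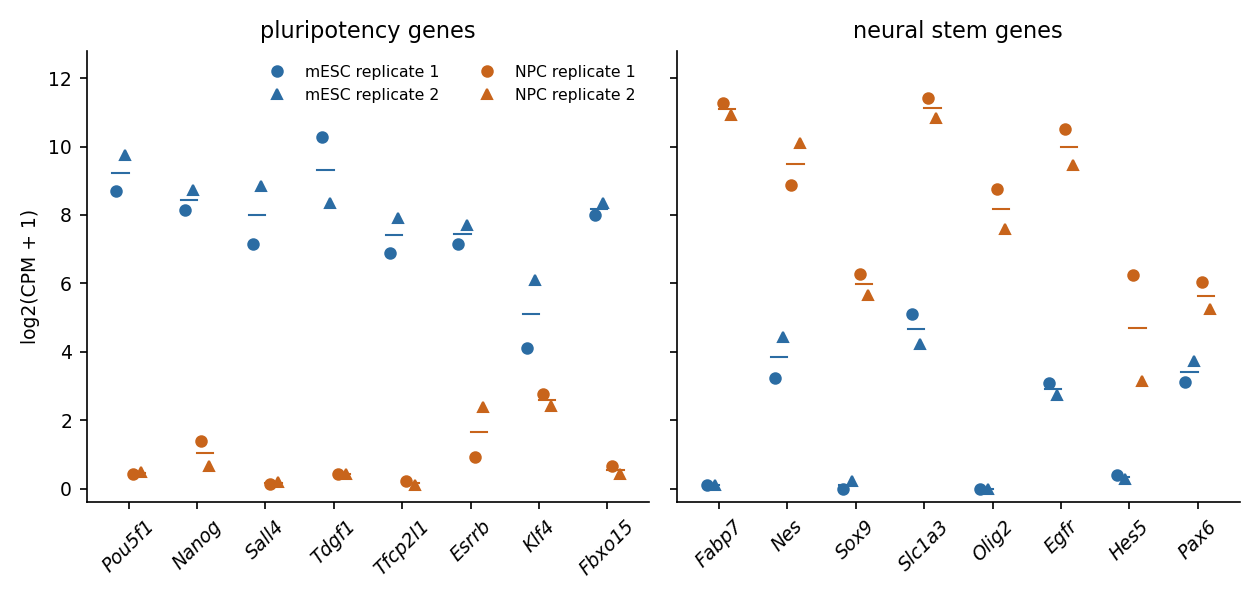
Level of 8 pluripotency genes (left) and 8 neural stem genes (right) in each library, as log2(CPM + 1); circles are replicate 1, triangles replicate 2, and short lines are the means of both. All 16 genes are among those called, and in each both libraries of one cell type lie above both of the other. The same holds for 70.7% of all genes tested, so this separation adds no support. Hes5 shows the widest gap between the NPC libraries.

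Genes of primed cells and early germ layers were low in NPC. Of 6 tested, 5 fell and Pou3f1 was not called, and 7 more members did not reach the level for testing. Members under 1 CPM in both NPC libraries, such as Otx2, Krt8 and Gata6, could pass the filter only through mESC. The count of 5 is thus partly set by the filter. Otx2, a factor of the primed epiblast, had 59.1 and 12.9 CPM in mESC and 0.453 and 0.243 in NPC. Krt8, an epithelial keratin, had 25.4 and 25.7 CPM against 0.0523 and 0.0365. The endoderm factors Gata4 and Gata6 fell by 2.19 (7.7 and 7.16 CPM against 0.488 and 1.29) and 2.61 (7.25 and 4.07 against 0.0523 and 0.0608). T (brachyury), a mesoderm marker, had 0.457 and 0.348 CPM in mESC and 0.209 and 0.498 in NPC. Without NPC replicate 1, the calls of Eomes and Gata4 were lost, and without NPC replicate 2 that of Eomes (adjusted p of up to 0.0912 for Eomes and 0.0518 for Gata4).

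Neural stem and radial glia genes rose in the same comparison. Of 28 tested, 25 were higher in NPC, 0 were lower and 3 were not called, with a median change of 4.83. Over all genes tested 17.6% were higher. Members under 1 CPM in both mESC libraries, such as Fabp7, could pass the filter only through NPC. Of the untested members, Nr2e1, in the NPC table alone, had 0.157 and 0.0243 CPM there. Olig1, in the mESC table alone, had 0.441 and 0 CPM, and 1 more did not reach the level for testing. Fabp7, a lipid-binding protein of radial glia (chr10:57784881-57788450), had the largest rise of all genes named: 5 reads in each mESC library (0.0816 and 0.0869 CPM) and 2487 and 1954 CPM in NPC, a change of 10.99 (SE 0.34, adjusted p = 0.0011). Tnc, the matrix protein tenascin C of the stem cell niche, had 0.457 and 4.01 CPM in mESC and 3173 and 6096 in NPC. Slc1a3, the glutamate transporter GLAST, rose by 6.46 (33.5 and 17.8 CPM against 2728 and 1825). The intermediate filament genes Nes and Vim rose by 5.65 and 3.61, and Vim already had 88 and 133 CPM in mESC.

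Among the transcription factors of this group, Olig2 had no read in either mESC library and 432 and 193 CPM in NPC. Against a floor of 3 reads over both mESC libraries it was at least 12387-fold higher, a bound that covers counting error only. Nfia, Nfib and Nfix, factors of the switch to gliogenesis, rose by 6.80, 4.90 and 5.18. Pax6 rose by 2.22, from 7.66 and 12.3 CPM to 64.5 and 37. Sox1, an early neuroectoderm gene, was not called: it had 0 and 5.11 CPM in mESC and 1.48 and 0.559 in NPC (interval of the change -2.42 to 1.76). Prom1 and Hopx were not called either. Of the 25 calls, 19 were kept whichever library was left out, while 5 were lost without mESC replicate 1, 5 without mESC replicate 2 and 2 without NPC replicate 1 (Pax6, Msi1, Hes5, Emx2, Zbtb20 and Cd44, adjusted p of up to 0.14).

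Markers of mature neural cells moved unevenly. Of 14 neuron genes tested, 4 rose, 4 fell and 6 were not called, against 32.6% called over all genes tested. Map2, a microtubule protein of dendrites, had 7.77 and 3.68 CPM in mESC and 1585 and 1215 in NPC, and Gap43, a growth cone protein, rose by 4.59. Stmn2, a tubulin regulator usually named as a neuron marker, went the other way: it had 307 and 369 CPM in mESC and 0.174 and 0.352 in NPC, a change of -8.06 (SE 0.38, adjusted p = 0.0011). The neurofilament gene Nefl fell by 3.65. Tubb3 had 29.8 and 107 CPM in mESC and 20.3 and 11.4 in NPC and was not called (adjusted p = 0.0896). The synaptic gene Snap25 and the neuronal nuclear protein gene Rbfox3 lay at or under 1.32 CPM in all 4 libraries. Without NPC replicate 1 the calls of Syp, Neurod1 and Slc17a7 were lost, without NPC replicate 2 those of Syp and Slc17a7, without mESC replicate 1 those of Syt1 and Neurod1, and without mESC replicate 2 that of Syp (adjusted p of up to 0.163).

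Astrocyte genes rose in 7 of 10 tested members, against 17.6% of all genes tested, with 0 lower and a median change of 3.78. Slc1a2, the glutamate transporter GLT-1, had 0.0816 and 0.122 CPM in mESC and 530 and 122 in NPC. Aldoc, an aldolase of astrocytes and radial glia, rose by 5.19, and Gja1, which encodes connexin 43, by 6.17, though the call of Gja1 was lost in the fit of all 24 libraries (adjusted p = 0.0618). Gfap, the defining filament of mature astrocytes, lay too low to test, at 0.751 and 0.33 CPM in mESC and 1.8 and 0.766 in NPC. The water channel gene Aqp4 had 0.049 and 0 CPM in mESC and a mean of 53.4 CPM ± 67.4 (SD, n = 2) in NPC, where replicate 2 was far lower, at 5.7 CPM. Its call (adjusted p = 0.034) was lost without mESC replicate 1 or mESC replicate 2 (adjusted p of up to 0.158), as was that of S100b, and that of Glul was lost without any of the 4 libraries (adjusted p of up to 0.195).

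Of 11 oligodendrocyte lineage genes, 5 rose, 3 fell and 3 were not called, against 32.6% called over all genes tested. Those that rose include markers of precursors: Pdgfra (27.7 and 17.7 CPM against 263 and 88.9), Cspg4, which encodes NG2, and Gpr17 (0.196 and 0.348 against 116 and 11). Cnp, a gene of myelin, also rose, by 2.00 (11.8 and 23.5 CPM against 106 and 46), whereas Myrf and Mog, genes of myelinating cells, fell by 2.11 and 2.00 from low levels. Mbp was not called. Whichever library was left out, the calls of Cspg4 and Nkx2-2 were kept. Without NPC replicate 1, 5 calls were lost, without mESC replicate 1 3 and without mESC replicate 2 4, at an adjusted p of up to 0.193.

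Since mESC were grown on fibroblasts, fibroblast genes were read beside these results. Col1a1 had 0.49 and 0.834 CPM in mESC and 0.802 and 0.936 in NPC, Col1a2 had 0.8 and 1.91 against 0.628 and 0.547, and Dcn, Col3a1, Prrx1 and Postn were under 0.3 CPM in both mESC libraries. Of the 12 members tested, 7 were higher in NPC, which were not grown on feeder cells: Prrx1 (0.049 and 0.226 against 50.5 and 30.6) and Col3a1 (0 and 0.139 against 23.8 and 21.6) rose by 5.15 and 4.47. Fn1, the fibronectin gene, and Pdgfrb fell. Over all genes tested 17.6% were higher in NPC and 14.9% lower. The summed level of the 12 genes tested and 4 more under the filter was 358 and 271 CPM in mESC, of which Fn1 held 329 and 229. In NPC that sum was 244 and 335 CPM. The calls of Col6a1, Col6a3, Pdgfrb, S100a4 and Fn1 were each lost without at least 1 library: 1 without NPC replicate 1, 3 without NPC replicate 2, 4 without mESC replicate 1 and 2 without mESC replicate 2 (adjusted p of up to 0.0965). The part of feeder RNA in the other results was not tested beyond these levels. Both cell types had Y-linked transcripts: Ddx3y had 24.5 and 25.4 CPM in mESC and 60.7 and 50 in NPC and was not called.

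**Figure D3:**
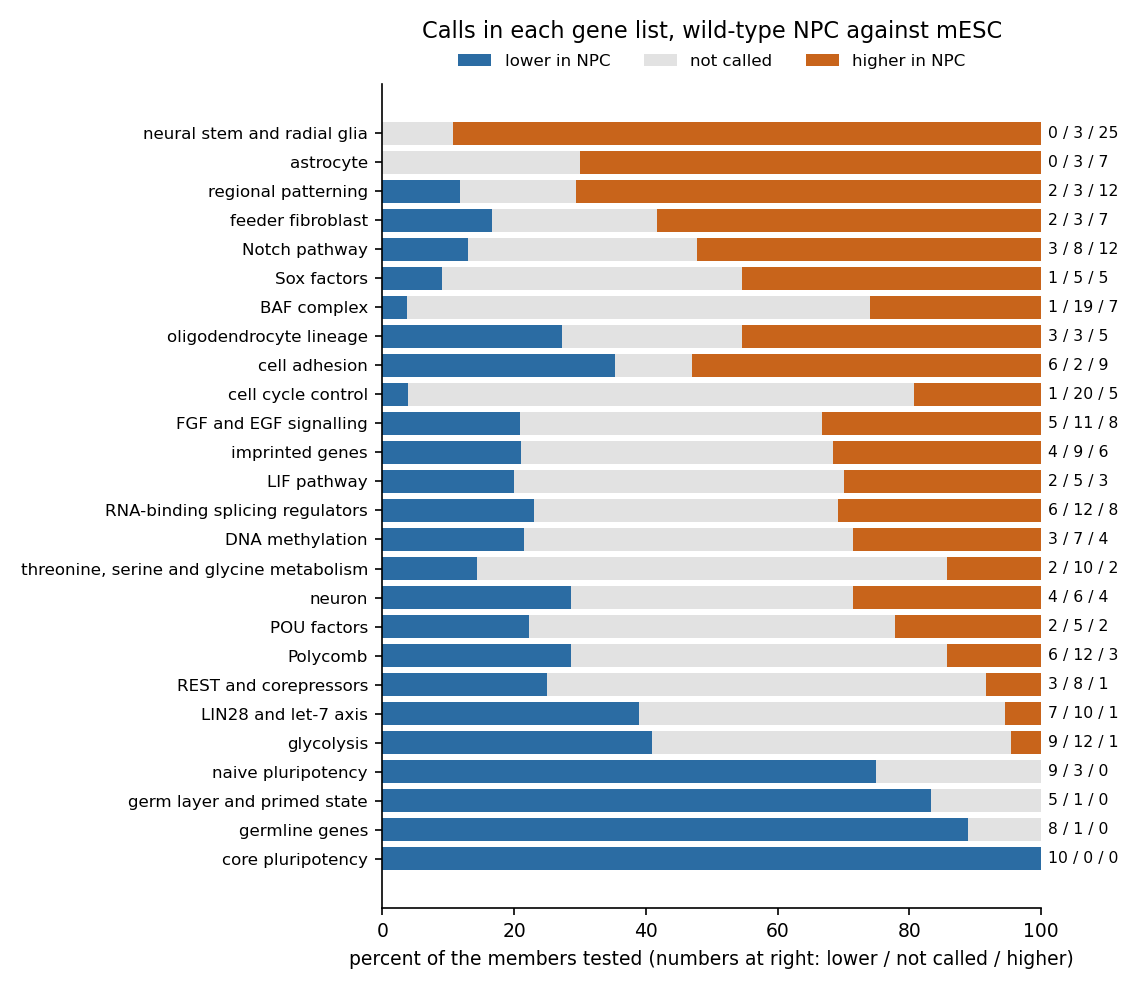
Share of the tested members of each gene list that were lower (blue), not called (grey) or higher (orange) in NPC, in percent, with the numbers at the right. Over all genes tested 14.9% were lower and 17.6% higher.

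POU factors bind an octamer DNA motif, and their classes mark different stages. Beside the fall of Pou5f1, the class III member Pou3f4 (Brn4; chrX:110814280-110817207) had 0.114 and 0.0869 CPM in mESC and 170 and 122 in NPC, a change of 7.04 (SE 0.41, adjusted p = 0.0011). Pou6f1 rose by 3.47, from 3.2 and 8.33 CPM to 75.9 and 61.5, and Pou2f3 fell by 2.48. The broadly expressed Pou2f1 (Oct1) was not called: 65.6 and 55.1 CPM against 59.1 and 35.2 (interval of the change -1.36 to 0.57). Per kilobase of exon, Pou5f1 had a mean level of 285 CPM in mESC and Pou3f4 one of 49.8 CPM in NPC. Pou3f3 (Brn1), listed in the NPC table alone, had 271 and 145 CPM there. Pou3f1 (Oct6), which primed cells express, had 10.7 and 18.3 CPM in mESC and 0.523 and 9.67 in NPC and was not called. All 4 POU calls were kept whichever library was left out.

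Sox factors pair with POU factors at many enhancers. Of 11 tested, 5 rose, 1 fell and 5 were not called, beside 32.6% called over all genes tested. Sox8 and Sox9 of the SoxE group rose by 6.74 and 5.87 and the SoxD genes Sox5 and Sox6 by 6.13 and 6.38; Sox9, which keeps radial glia as stem cells, had 0 and 0.156 CPM in mESC and 76.4 and 49.8 in NPC. Sox10, the SoxE gene of oligodendrocyte precursors, had 15.7 and 2.59 CPM in NPC and was not called (adjusted p = 0.0584). Sox12, with no read in mESC, had 37.5 and 42.6 CPM in NPC. Sox21 had no read in mESC either and stood at 128 and 1.36 CPM in the NPC libraries, so that it was not called (adjusted p = 0.121). Sox4, in the NPC table alone, had 643 CPM in NPC replicate 1 and 0 in NPC replicate 2. The median of the 11 changes was 4.12, and 5.87 with Sox12 and Sox21 set to their bounds. Those bounds take their mESC zeros as true, which is uncertain since both genes have a single exon. In the fit of all 24 libraries Sox12 changed by 5.40 in wild type, 1.82 in KO and 0.70 to 3.04 in the knock-in lines. Without NPC replicate 1 or mESC replicate 2 the call of Sox7, the gene that fell, was lost (adjusted p of up to 0.1).

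Notch signalling holds progenitors back from differentiation: a ligand on one cell leads to the release of the intracellular part of Notch in the next, which acts with RBPJ on Hes and Hey genes. Of 23 members tested, 12 rose, 3 fell and 8 were not called, with a median change of 1.82. Over all genes tested 17.6% rose and 14.9% fell. Among the ligands, Dll1 (14.3 and 2.1 CPM against 323 and 92.7), Dll3 and Jag1 rose by 4.66, 3.58 and 2.20, and Jag2 fell by 3.32. Among the receptors, Notch1 had 41.1 and 37.3 CPM in mESC and 790 and 334 in NPC, a change of 3.68 (SE 0.46, adjusted p = 0.00384), Notch2 and Notch3 rose by 1.82 and 2.15, and Notch4, a receptor of blood vessels, fell by 2.71. The coactivators Maml2 and Maml3 rose and the DNA-binding partner Rbpj fell by 1.64 (221 and 361 CPM against 99.3 and 81.2). Lfng, the glycosyltransferase that tunes the receptors, rose by 4.34.

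Target genes of Notch gave mixed calls. Hey1 rose by 3.93, from 3.22 and 1.41 CPM to 71.9 and 31.3. Hes5 rose by 4.34, with 0.326 and 0.226 CPM in mESC but 74.2 and 7.81 in the NPC libraries. Hes1 had 14.5 and 15.6 CPM in mESC and 21.5 and 46 in NPC and was not called (adjusted p = 0.157), and Hey2 had 9.94 and 0.498 in NPC. The NPC libraries differed over the list: the median of replicate 2 minus replicate 1 was -0.85 on the log2(CPM + 1) scale, against 0.03 over all genes tested. Of the 15 calls of the pathway, 7 were kept whichever library was left out. Without NPC replicate 1 7 were lost, without NPC replicate 2 1, without mESC replicate 1 4 and without mESC replicate 2 7, at an adjusted p of up to 0.168.

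FGF and EGF are the growth factors of the NPC medium, and their receptors changed in both directions. Egfr rose by 7.06 (7.54 and 5.65 CPM against 1448 and 698), Erbb4 by 7.49 (0.0163 and 0 against 378 and 85.3), Fgfr3 by 4.63, Erbb2 by 1.85 and Fgfr1 by 1.62. Erbb3 fell by 4.71 (31 and 45.9 CPM against 0.715 and 0.279) and Fgfr4 by 1.39. Of the ligands, Fgf15 and Fgf17 fell by 2.82 and 3.74 and Nrg1 by 1.48, while Tgfa rose by 1.81. Fgf4, the main FGF of stem cells, is listed in the mESC table alone at 135 and 91.1 CPM. Feedback inhibitors of the pathway gave no common direction: Spry2 rose by 3.33, whereas Spry1, Spry4, Spred1, Spred2, Dusp4 and Dusp6 were not called, and Dusp6 had 38.4 and 251 CPM in NPC. The target Etv1 rose by 2.48, and Etv4 and Etv5 were not called. In all, 8 of 24 members rose, 5 fell and 11 were not called, where 32.6% of all genes tested were called. Without NPC replicate 1 6 calls were lost, and 4 without each of NPC replicate 2, mESC replicate 1 and mESC replicate 2, at an adjusted p of up to 0.203.

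Of 10 tested genes of the LIF pathway, 3 rose, 2 fell and 5 were not called in NPC, which were grown without LIF. The share called over all genes tested was 32.6%. Lifr had 114 and 107 CPM in mESC and 231 and 183 in NPC (not called, interval of the change 0.16 to 1.62), and Il6st, which encodes gp130, had 129 and 79.3 against 161 and 83.1. The kinase and signal genes behind the receptor moved more: Stat3, the transducer of LIF, rose by 2.20 (29.1 and 109 CPM against 305 and 229, adjusted p = 0.0459) and Jak2 by 3.07, while Jak1 was not called. The targets Pim1 and Pim3 fell by 3.33 and 3.52. Socs3 had 0.979 and 28.7 CPM in the mESC libraries, on either side of its NPC values (3.28 and 4.53). The call of Stat3 was lost without mESC replicate 1, NPC replicate 1 or NPC replicate 2 (adjusted p of up to 0.178), that of Ptpn11 without any of the 4 libraries, and that of Pim3 without mESC replicate 2 (adjusted p = 0.0556).

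The BAF complex moves nucleosomes with either of the ATPases Brg1 (Smarca4) or Brm (Smarca2), and stem cells and neural progenitors are known to use different subunits. Of 27 members tested, 7 rose, 1 fell and 19 were not called. The share called over all genes tested was 32.6%, so the list as a whole held no excess of calls. Smarca2 had 3.28 and 2.49 CPM in mESC and 93.2 and 45.3 in NPC, a change of 4.10 (SE 0.49, adjusted p = 0.00339). Smarca4 had 253 and 342 CPM against 427 and 540 and was not called (0.70, interval -0.06 to 1.46). Per kilobase of exon, its mean level in NPC, 74.6 CPM, was above that of Smarca2, 4.85 CPM.

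Of the scaffold pair, one member changed. Smarcc2 (BAF170) rose by 3.66, from 21.3 and 18.9 CPM to 320 and 220, and Smarcc1 (BAF155), at 320 and 331 CPM against 286 and 352, had a change of -0.04 (interval -0.72 to 0.65). Per kilobase, Smarcc1 had 41.6 CPM in mESC and 40.7 in NPC, and Smarcc2 3.62 and 48.6. Among the BAF60 subunits, Smarcd3 rose by 2.68, Smarcd2 fell by 1.66 and Smarcd1 was not called. Dpf3 (BAF45C) rose by 3.78, and Dpf2, its broadly expressed relative, had a change of 0.04. Bcl7a, Arid1b and Smarce1 rose by 2.55, 1.52 and 1.24. Actl6a (BAF53A) had 314 and 367 CPM against 64 and 180 and was not called (adjusted p = 0.0583), and its neuronal counterpart Actl6b was under 0.3 CPM in all 4 libraries. The calls of Smarca2 and Smarcc2 were kept whichever library was left out. Of the other 6, 5 were lost without NPC replicate 1, 1 without NPC replicate 2, 6 without mESC replicate 1 and 4 without mESC replicate 2, at an adjusted p of up to 0.105.

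**Figure D4:**
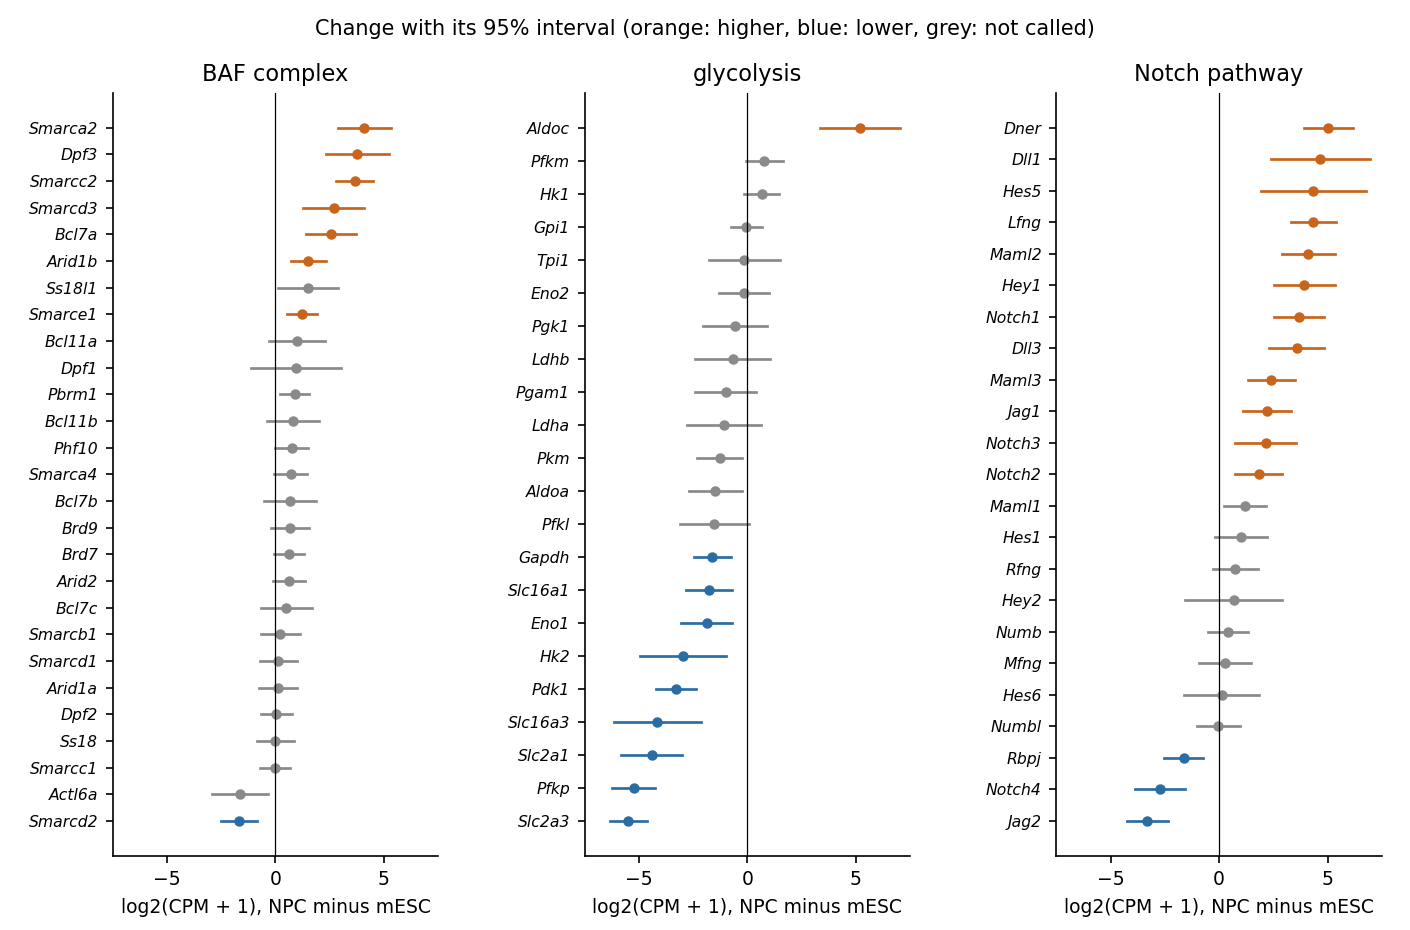
Change in log2(CPM + 1), NPC minus mESC, of each tested member of the BAF complex (27), glycolysis (22) and the Notch pathway (23), with its 95% interval from the model; orange is higher, blue lower and grey not called. Smarca2, Smarcc2 and Dpf3 lead the BAF members, while Slc2a3 and Pfkp are lowest in glycolysis.

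Of 14 genes of DNA methylation tested, 4 rose, 3 fell and 7 were not called, beside 32.6% called over all genes tested. Dnmt3b, a de novo methyltransferase, had 293 and 290 CPM in mESC and 4.62 and 7.21 in NPC, a change of -5.43 (SE 0.36, adjusted p = 0.00114), whereas Dnmt3a had 179 and 152 against 222 and 199 and was not called (interval -0.36 to 1.05). Of the TET dioxygenases, Tet1 fell by 2.67 (347 and 441 CPM against 64.4 and 57), Tet3 rose by 2.94 (11.7 and 6.88 against 72.8 and 78.7), and Tet2 was not called. The maintenance pair Dnmt1 and Uhrf1 differed between the NPC libraries, at 208 and 712 CPM and at 64.1 and 456 CPM, and neither was called. The methyl-CpG binding protein genes Mbd1 and Mbd2 rose by 1.62 and 1.32, and Zbtb38 fell by 2.80. The calls of Mbd1 and Mbd2 were lost whichever of the 4 libraries was left out (adjusted p of up to 0.182), and those of Dnmt3b, Tet1, Tet3 and Zbtb38 were kept.

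Germline genes are a class that DNA methylation and other repressors keep silent in body cells and that mouse stem cells express in part. Of 9 tested, 8 fell and Dmrtb1, at 1.14 and 1.44 CPM against 1.48 and 1.19, was not called. Over all genes tested 14.9% fell. Members under 1 CPM in both NPC libraries, such as Piwil2 and Sycp3, could pass the filter only through mESC. Their direction was thus set by it, and the count of 8 is no independent support. Piwil2, a Piwi protein that binds small RNAs, fell by 5.36 (33 and 58.9 CPM against 0.174 and 0.0243), Ddx4 (Vasa), an RNA helicase, by 5.14 and Tex19.1 by 5.00. Sycp3, a protein of the axis of meiotic chromosomes, had 67.4 and 13.9 CPM in mESC and 0.122 and 0.0365 in NPC. Tex11 (34.9 and 36.8 CPM against 0.558 and 1.49), Slc25a31, Sycp1 and Taf7l fell by 4.22, 3.91, 2.92 and 2.78. Another 10 members are listed in the mESC table alone, among them Dazl (57.7 and 194 CPM) and Sohlh2 (157 and 94.7). All 8 calls were kept whichever library was left out.

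The E-box CACGTG, which reads the same on both strands and is bound by several factors such as MAX and MYC, stands before the start of many germline genes. RefSeq promoters (GRCm38.p6) matched 17 of the 19 genes of the list. In the 250 bases before a start, CACGTG was found in 9 of these 17 genes (52.9%) and in 6.02% of all 32851 promoters of that length. The E2F-like motif GGCGGGAA, searched on both strands, was in 2 of the 17 (11.8%) and in 1.86% of all. A gene with several promoters was counted if any held the motif, whereas the share over all is per promoter. Both motifs hold a CpG. The median CpG count was 17 over the germline genes, taking the largest of each gene, and 6 over all promoters. These shares are thus not matched for CpG content. A match is a description and not a site of binding. Of the 8 genes that fell, 6 have a promoter in the table. Among these, Ddx4, Sycp1, Sycp3, Taf7l and Slc25a31 hold CACGTG, Ddx4 also holds GGCGGGAA, and Tex19.1, which fell by 5.00, holds neither. Shown here, as the genes that fell and hold CACGTG alone of the 2 motifs, are the bases upstream of Sycp1 (chr3:102936101-102936350, minus strand), Sycp3 (chr10:88459337-88459568, plus strand), Taf7l (chrX:134476491-134476740, minus strand) and Slc25a31 (chr3:40708621-40708854, plus strand), written 5′ to 3′ in the direction of the gene, with CACGTG in capitals. They end where the first annotated start of the gene begins.
Sycp1: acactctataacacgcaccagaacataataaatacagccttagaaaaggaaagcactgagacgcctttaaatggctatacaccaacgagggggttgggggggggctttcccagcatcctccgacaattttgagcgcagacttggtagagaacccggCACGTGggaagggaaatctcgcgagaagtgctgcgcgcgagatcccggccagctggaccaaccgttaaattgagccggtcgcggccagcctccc
Sycp3: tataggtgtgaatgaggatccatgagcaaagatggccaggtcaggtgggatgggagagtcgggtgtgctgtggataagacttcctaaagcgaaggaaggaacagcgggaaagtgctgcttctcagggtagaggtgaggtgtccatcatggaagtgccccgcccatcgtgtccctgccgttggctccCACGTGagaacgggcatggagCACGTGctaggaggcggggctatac
Taf7l: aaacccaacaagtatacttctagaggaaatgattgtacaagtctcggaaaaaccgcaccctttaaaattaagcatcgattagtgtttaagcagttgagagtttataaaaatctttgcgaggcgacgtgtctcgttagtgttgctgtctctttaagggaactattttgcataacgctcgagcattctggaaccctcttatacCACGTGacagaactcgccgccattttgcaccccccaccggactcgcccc
Slc25a31: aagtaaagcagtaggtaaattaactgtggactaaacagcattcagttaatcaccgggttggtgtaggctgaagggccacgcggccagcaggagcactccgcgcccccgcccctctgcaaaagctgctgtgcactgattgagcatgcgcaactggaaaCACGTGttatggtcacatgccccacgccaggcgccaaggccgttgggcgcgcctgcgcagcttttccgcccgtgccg
Sycp3 holds the motif at 2 places and each of the other 3 genes at 1. The CpG dinucleotides in these 4 sequences numbered 17 in Sycp1, 10 in Sycp3, 14 in Taf7l and 17 in Slc25a31, and the median over all promoters was 6 in 250 bases.

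Polycomb proteins silence genes through marks on histone tails. Of 21 tested, 6 fell, 3 rose and 12 were not called, where 32.6% of all genes tested were called. Among the partners of the methyltransferase complex PRC2, Mtf2 (729 and 550 CPM against 60.3 and 64.7), Eed, Jarid2 and Suz12 fell by 3.32, 2.52, 2.47 and 2.24, while the catalytic gene Ezh2 (156 and 171 against 100 and 143) was not called. Among the chromobox proteins of PRC1, Cbx7 fell by 2.55 (107 and 110 CPM against 27.1 and 11.4) and Cbx8 rose by 2.15 (2.29 and 2.64 CPM against 8.54 and 23.6). Pcgf6, a subunit of a variant complex, fell by 2.44, and its relative Bmi1 (Pcgf4) rose by 2.07. The calls of Mtf2 and Suz12 were kept whichever library was left out, while 5 were lost without mESC replicate 2, 4 without mESC replicate 1, 2 without NPC replicate 2 and 1 without NPC replicate 1, at an adjusted p of up to 0.152.

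The series concerns splicing, and genes of RNA-binding proteins that steer it changed in both directions. Of 26 tested, 8 rose, 6 fell and 12 were not called, against 32.6% called over all genes tested. Nova1 had 3.66 and 2.55 CPM in mESC and 81.7 and 137 in NPC, a change of 4.72 (SE 0.44, adjusted p = 0.00189). Celf2 rose by 4.45, Rbm24 by 3.04 and Khdrbs3 by 1.78. Qk (quaking), which also acts in the formation of circular RNA, rose by 2.95, from 178 and 155 CPM to 1363 and 1221. Mbnl1, another protein named in that process, rose by 1.63, and Mbnl2 was not called.

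The epithelial regulators went down. Rbm47 had 16.8 and 18.8 CPM in mESC and 0.0523 and 0 in NPC, Esrp2 fell by 2.06, and Esrp1 is listed in the mESC table alone at 32.3 and 11 CPM. Celf4, known from neurons, fell by 3.45 (20 and 19.8 CPM against 0.784 and 1.06). In the PTB family, Ptbp2, the neural member, rose by 1.24, from 77 and 51.5 CPM to 162 and 140, and Ptbp1, which represses neural exons, had 349 and 462 CPM against 117 and 280 and was not called (-1.14, interval -2.31 to 0.02). Srrm4, which promotes neuronal microexons, fell by 1.34 (1.78 and 1.69 CPM against 0.105 and 0.0486), a call lost in the fit of all 24 libraries (adjusted p = 0.0631). Of the 14 calls, 8 were kept whichever library was left out, while 3 each were lost without mESC replicate 1, NPC replicate 1 and NPC replicate 2 and 5 without mESC replicate 2, at an adjusted p of up to 0.176. That of Ptbp2 was lost in all 4 fits.

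LIN28 proteins block the maturation of the let-7 microRNA in stem cells. Both genes fell: Lin28a had 122 and 181 CPM in mESC and 0.244 and 0.401 in NPC (-6.82, SE 0.42), and Lin28b fell by 5.17. Of the genes that let-7 is known to target, some fell and others were not called. Igf2bp1 (251 and 347 CPM against 5.11 and 7.91), Arid3b, Mycn and Hmga1 fell by 5.33, 4.61, 3.99 and 1.75, while Igf2bp2, Igf2bp3 and Hmga2 were not called. Igf2bp3 had 85.6 and 90.4 CPM in mESC and 103 and 103 in NPC. The core processing genes Drosha, Dgcr8 and Dicer1 were not called, and of the Argonautes Ago1 rose by 1.99. Trim71 fell by 4.89, with 75.8 and 737 CPM in the mESC libraries. In all, 7 of 18 fell and 1 rose, while over all genes tested 14.9% fell and 17.6% rose. The calls of Trim71, Ago1 and Hmga1 were each lost without at least 1 library (2 without each of NPC replicate 1 and mESC replicate 1 and 3 without mESC replicate 2, adjusted p of up to 0.181).

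Stem cells are known to lean on glycolysis. Of 22 of its genes tested, 9 fell, 1 rose and 12 were not called, with a median change of -1.37. Over all genes tested 14.9% fell and 17.6% rose. The replicates stood apart over this list: the median of replicate 2 minus replicate 1 was 0.73 in NPC and -0.68 in mESC, and the summed level was 21368 and 12995 CPM in mESC and 5750 and 9102 CPM in NPC. The glucose transporter genes Slc2a3 (1970 and 1207 CPM against 30.9 and 36.1) and Slc2a1 fell by 5.49 (SE 0.35, adjusted p = 0.0011) and 4.40. Pfkp, a phosphofructokinase isoform, fell by 5.24 (491 and 287 CPM against 7.88 and 10.1), and the isoforms Pfkl and Pfkm were not called. The lactate exporter Slc16a3 and the kinase gene Pdk1, which limits the entry of pyruvate into mitochondria, fell by 4.14 and 3.29. Among the aldolases, Aldoc rose, as given above, and Aldoa had 2820 and 1151 CPM against 512 and 825 and was not called (adjusted p = 0.0724). The calls of Slc2a1, Slc2a3, Pfkp, Aldoc and Pdk1 were kept whichever library was left out. Those of Hk2, Gapdh, Eno1 and Slc16a1 were lost without mESC replicate 1, mESC replicate 2 or NPC replicate 1 and that of Slc16a3 without either mESC library (adjusted p of up to 0.194).

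In the use of threonine, serine and glycine, 2 of 14 genes rose, 2 fell and 10 were not called, where 32.6% of all genes tested were called. Phgdh and Psat1, which start serine synthesis, rose by 2.42 (204 and 83.8 CPM against 811 and 613) and 1.24. Mthfd1 of the folate cycle and Ahcy, which clears S-adenosylhomocysteine, fell by 1.72 and 1.43. Each of the 4 calls was lost without mESC replicate 2, and each without NPC replicate 1, and 3 of them without mESC replicate 1 (adjusted p of up to 0.164).

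Adhesion genes of epithelia fell and many of neural cells rose. Cdh1, which encodes E-cadherin, had 257 and 336 CPM in mESC and 1.34 and 0.0365 in NPC, a change of -7.57 (SE 0.52, adjusted p = 0.00114). Cdh2, which encodes N-cadherin, went from 2.02 and 3.82 CPM to 275 and 292, a change of 6.22 (SE 0.40, adjusted p = 0.00111). With Cdh1 fell Epcam, Dsp, which encodes desmoplakin, and Cdh3, by 6.87, 5.85 and 4.93. With Cdh2 rose the chondroitin sulphate proteoglycans Ncan (3.69 and 1.96 CPM against 2590 and 1020), Bcan and Vcan, by 8.77, 8.64 and 3.74, and the immunoglobulin-like adhesion genes Nrcam and Ncam1. L1cam, an adhesion gene of neurons, fell by 2.00. In all, 9 of 17 rose and 6 fell, while over all genes tested 17.6% rose and 14.9% fell. The calls of Cldn7 (without NPC replicate 1) and Cadm2 (without either mESC library) were lost, at an adjusted p of up to 0.0667.

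In the cell cycle genes the NPC libraries stood apart from each other. Of 26 tested, 5 rose, 1 fell and 20 were not called, and 7 of the 26 were 4-fold or more apart between the NPC libraries. The shares over all genes tested were 32.6% called and 2.95% that far apart in NPC. Ccnd1, which encodes cyclin D1, had 119 and 260 CPM in mESC and 63.1 and 1156 in NPC, and its change of 0.62 had an interval from -2.62 to 3.86. Ccne1 had 4.99 and 55.7 CPM in NPC, Cdk1 94.8 and 367, and Mycl 122 and 4.62. Ccnb1 had 703 and 558 CPM in mESC and 105 and 357 in NPC and was not called (adjusted p = 0.077). Among the inhibitors, Cdkn2c (p18) rose by 4.55, from 2.32 and 1.09 CPM to 40.8 and 89.8, and Cdkn1a (p21) by 1.75. Mycn fell by 3.99. Only the calls of Cdkn2c and Mycn were kept whichever library was left out. Those of Ccnd2, Cdkn1a, Cdkn2b and Rbl2 were lost without mESC replicate 2, and 3 of the 4 without each of mESC replicate 1, NPC replicate 1 and NPC replicate 2 (adjusted p of up to 0.183).

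**Figure D5:**
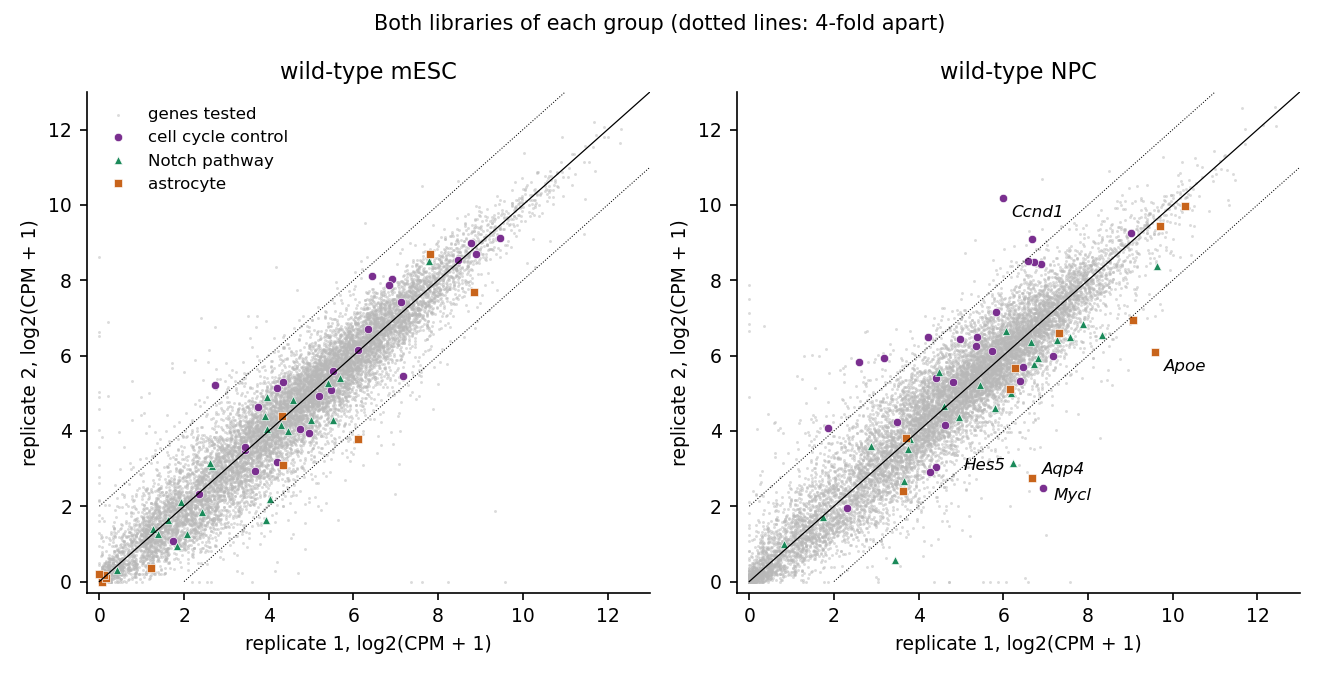
Replicate 2 against replicate 1 for all genes tested, as log2(CPM + 1), in mESC (left) and NPC (right), with the members of 3 lists marked; the solid line is equality and dotted lines are 4-fold apart. In NPC, the median of the cell cycle genes lies above the line and those of the astrocyte and Notch genes below it, with exceptions: Ccnd1 lies above and Apoe, Aqp4 and Hes5 below, but Mycl, a cell cycle gene, lies far below.

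Over all genes, the difference of log2(CPM + 1) between replicates had an SD of 0.759 in mESC and 0.834 in NPC. In mESC 260 genes (2%) and in NPC 384 genes (2.95%) were 4-fold or more apart. In NPC replicate 2 Apln (1.45 and 62.3 CPM), Fzd4 (2.49 and 71.9) and Tnfrsf12a (1.2 and 42.8) were higher, and in NPC replicate 1 Draxin (310 and 13) and Arl4c (66.2 and 0). In mESC, S100a6 (4.26 and 127 CPM), Tmcc1 (17 and 326) and Ntn1 (2.29 and 54.4) were higher in replicate 2 and Zfp260 (125 and 3.98) and Rbm15 (135 and 7.65) in replicate 1. The median of replicate 2 minus replicate 1 in NPC was 0.93 for the cell cycle list, -0.88 for the astrocyte list and -0.73 for the neural stem list.

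Patterning factors mark the position of neural cells along the body axis. Of 17 patterning genes tested, 12 rose, 2 fell and 3 were not called, beside 17.6% that rose over all genes tested. The Hox genes Hoxa5 (0.147 and 0.295 CPM against 14.8 and 16.4), Hoxa2, Hoxb2 and Hoxb4, which mark hindbrain and cervical cord, rose by 3.76, 3.56, 2.54 and 2.37. Hoxb9 and Hoxc8 of more posterior levels were under 0.6 CPM in all 4 libraries. Hoxa9 had 1.05 and 1.26 CPM in NPC when all 24 libraries were scaled together. In the fit of those libraries, Emx2 changed by 2.35 and Otx2 by -4.43 in wild type. Irx3 and Irx5 rose by 3.07 and 3.40, and En1 of midbrain and anterior hindbrain by 2.42. Pax3, a dorsal gene, had 20 and 11.3 CPM in NPC, and its ventral counterpart Nkx2-2 3.7 and 3.72. The cofactor Meis1 rose by 5.20 (1.58 and 3.68 CPM against 149 and 108). Among the calls, those of En1, Emx2 and Meis2 were lost without mESC replicate 1, that of En1 also without mESC replicate 2 and that of Meis2 also without either NPC library (adjusted p of up to 0.157).

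Imprinted genes, which are expressed from a single parental copy, changed in both directions. Of 19 tested, 6 rose, 4 fell and 9 were not called, where 32.6% of all genes tested were called. Nnat (neuronatin) had 1.81 and 1.03 CPM in mESC and 418 and 162 in NPC, and Gnas, Sgce and Peg3 rose by 3.05, 2.90 and 2.55. Mest rose by 3.52, with 361 and 1912 CPM in the NPC libraries. Zdbf2 fell by 6.56 (130 and 188 CPM against 0.593 and 0.741), and Rtl1, Grb10 and Snrpn fell by 3.51, 2.12 and 2.09. Ndn, a single-exon gene, had 11.2 and 0 CPM in mESC, and its rise of 4.83 was not called by edgeR (adjusted p = 0.16) or DESeq2 (adjusted p = 0.351). The calls of Ndn (without either NPC library), of Mest, Snrpn and Grb10 (without either mESC library) and of Sgce (without NPC replicate 1 or mESC replicate 2) were lost, at an adjusted p of up to 0.121.

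REST represses neuronal genes in other cells. Rest fell by 1.99 (434 and 615 CPM against 135 and 124, SE 0.31, adjusted p = 0.00708), and of its corepressors Hdac1 and Sin3a fell by 1.29 and 1.09 and Rcor3 rose by 1.72. The other 8 of 12 were not called, among them Kdm1a at 324 and 328 CPM against 325 and 306. For comparison, 32.6% of all genes tested were called. The calls of Rcor3 and Hdac1 were lost without any of the 4 libraries and that of Sin3a without mESC replicate 1, mESC replicate 2 or NPC replicate 1 (adjusted p of up to 0.179).

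Over all genes tested, list members included, the largest rises among called genes that reach 10 CPM on average in NPC were Fabp7, Tnc, Ptn, Slc6a11, Ptprz1, Astn1, Sparcl1, Ncan, Spon1, Bcan, Acsbg1, Plat, Olig2, Pcdh9 and Ncald, by 10.99 to 8.07. Ptn, the growth factor pleiotrophin, had 0.522 and 0.156 CPM in mESC and 2831 and 1629 in NPC, and Ptprz1, the receptor phosphatase that binds it, 0.914 and 1.58 against 1848 and 919. Slc6a11, a GABA transporter of glia, had 0.0979 and 0.226 against 1372 and 410. The largest falls, among genes that reach 10 CPM in mESC, were Tdgf1, Pou5f1, Rex2, Stmn2, Morc1, Rnf17, Sall4, Zfp990, Chchd10, Zfp980, Fbxo15, Cdh1, Trim6, Nanog and Zfp978, whose values fell by 8.89 to 7.32. Morc1 and Rnf17, both known from the male germ line, had 224 and 242 CPM and 427 and 252 CPM in mESC and under 0.7 CPM in NPC. Chchd10, a mitochondrial protein gene, had 358 and 382 CPM against 0.506 and 1.02. Rex2, Zfp990, Zfp980 and Zfp978 belong to a zinc finger cluster of near-identical copies, so reads may be split among them and their single values are uncertain. All 30 of these calls were kept whichever library was left out.

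Genes listed in 1 table alone numbered 1929 for mESC and 452 for NPC, and 408 and 87 of them averaged 1 CPM or more over the wild-type libraries. Every gene of a table had at least 7 reads over its 12 libraries, and absence from the other table was not read as 0. Of the 10 highest in NPC, 8 are single-exon by the count above, among them Klhl9 (428 and 359 CPM), Sox4, Pou3f3, Rhob (50 and 64.9) and Rrs1 (0 and 72.8). Lsamp, an adhesion protein gene of neurons, and Lhfpl3 were the other 2, with 153 and 53.1 CPM and 109 and 46.2 CPM. Of the 10 highest in mESC, only Pcbp1, a broadly expressed RNA-binding protein gene, has a single exon. Beside those given above, Triml2 had 127 and 156 CPM in mESC.

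Htt itself, the gene altered in the rest of the series (chr5:34761740-34912534, where another annotated gene overlaps it on the same strand), had 123 and 111 CPM in mESC and 137 and 175 in NPC. Its change of 0.40 (SE 0.30, adjusted p = 0.347) had an interval from -0.35 to 1.15.

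Whether the mESC to NPC change differed in wild type from that of other genotypes was tested over all 24 libraries. Against KO, 23 of 14112 genes (0.163%) differed and 898 had an unadjusted p under 0.05; against the mean of the 4 knock-in lines, 330 (2.34%) differed. Both tests share the wild-type libraries. Of the 4243 genes called above, 11 differed from KO and 228 from the knock-in lines. Without NPC replicate 2 the counts were 206 and 870. Without mESC replicate 1, mESC replicate 2 or NPC replicate 1 those against the knock-in lines were 174, 165 and 180.

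Pou5f1 changed by -8.78 in wild type, -8.98 in KO and -2.09, -8.78, -8.76 and -8.24 in Q20, Q50, Q92 and Q111 in that fit, and the wild type minus knock-in difference was -1.81 (SE 0.42, adjusted p = 0.0324). Among the knock-in lines Q20 had the smallest change. Stmn2 had -8.07 in wild type and -1.15 in Q20, and Zdbf2 had -6.56 and -1.18. Egfr and Cspg4 rose by 2.36 and 2.17 more in wild type than in the mean of the knock-in lines, Cdh2 by 2.03 more and Pax3 by 2.85 more. The lines were unlike. In Q20, Q50, Q92 and Q111 Egfr changed by 3.18, 5.07, 5.01 and 5.67 (wild type 7.09). In the same order Cspg4 had 0.34, 1.94, 2.09 and 3.75 (wild type 4.20). Cdh2 had 3.42, 4.98, 4.70 and 3.78 (wild type 6.25), and Pax3 1.76, 2.70, -0.12 and 0.16 (wild type 3.98). The Y-linked Ddx3y differed by 2.04, and its change in Q50 was -4.62. The number of lines or clones per genotype is not stated, so a line and its repeat length cannot be told apart.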

How the data were processed

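RNA of 24 libraries was sequenced, and 4 of them, wild-type mESC and NPC in 2 replicates each, make the comparison. Reads went through CASAVA 1.8 and STAR on GRCm38.p6, per the submitters' processing notes; how genes were counted is not given in the sources used here. The values the authors deposited are a normalised signal, CPM scaled to an effective library size, in 1 table per cell type. Each value was a whole multiple of what 1 read is worth (100% whole within 0.1), so reads were recovered, and the 4 columns were scaled together with TMM factors (edgeR 4.0.16) over 15572 genes in both tables; 99.96% of these matched GENCODE M21 (GRCm38).

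Genes with at least 1 CPM in at least 2 libraries were tested on log2(CPM + 1) with limma 3.58.1 (limma-trend, R 4.3.3), two-sided, with Benjamini-Hochberg adjustment over all genes tested; called means an adjusted p under 0.05. Exact permutation of 2 against 2 libraries cannot give a p below 0.333. Differences of the change between genotypes were contrasts in a limma fit of all 24 libraries. The scripts were tested on simulated data. Alternatives were the pseudocount, filters, scaling, edgeR and DESeq2 1.42.0 on the recovered reads, the replicate block, all libraries, and each library left out; leaving out single-exon genes was chosen after seeing the data. Members and gene lists were chosen with earlier results of these data known. Named genes were up to 4 called members of a list in each direction with the largest change and a mean of at least 5 CPM, any member of a pathway or complex by role, the 15 largest rises and falls (10 CPM), the 10 highest genes of each single table, 5 per side of each genotype difference and the 8 furthest apart between replicates; others were chosen after their values were seen. Promoter sequences are from RefSeq. Some members of the lists are counted in them but not reported here by name.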

Additional observations from a re-analysis of the deposited data

Results flagged for a closer look

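The mESC to NPC change in wild type was set against the same change in the other genotypes, and the genes given here differed by the test of that difference (limma, all 24 libraries, adjusted p under 0.05). Values are the wild-type change minus the other change on the log2(CPM + 1) scale.

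Of the 23 genes that differed from KO, 7 had a greater (more positive) change in wild type and 16 a smaller one, and the 5 furthest apart on each side with at least 10 CPM in the highest group are named. On the greater side, Ptprk, a receptor phosphatase gene, differed by 2.62 (SE 0.25, adjusted p = 9.45e-05): it changed by -1.87 in wild type and -4.49 in KO. In Q92 it changed by -3.40, and by -0.99 to -1.42 in the other knock-in lines. Aff2 differed by 2.36, Zfp689 by 2.27, Rgcc by 2.08 and Chd3, which encodes a chromatin remodeller, by 1.92. Zfp689 changed by 1.83 in wild type, -0.44 in KO and 0.23 to 0.42 in the knock-in lines. Its mESC level was 2.62 and 3.21 CPM in wild type and 8.64 to 12.2 in the other genotypes. Chd3 had -0.94 in KO, 0.86 in Q20 and -0.41, -0.69 and -0.78 in Q50, Q92 and Q111. Rgcc had 1.01 in KO, 0.65 in Q50 and 1.57 to 3.56 in the other lines. Aff2 had 1.57 in KO and 2.91 to 4.14 in the knock-in lines. On the smaller side, the chemokine gene Cx3cl1 differed by -4.57 (SE 0.63, adjusted p = 0.00398), with 0.80 in wild type and 5.37 in KO. Khdrbs2, a splicing regulator, differed by -4.13, Tmem132c by -3.91, Hoxa9 by -3.74 and Bmp5 by -3.35. Some of these rises were not confined to KO. Hoxa9 changed by 4.49 in KO and 4.23 in Q92, against 0.01, -0.39 and -0.13 in Q20, Q50 and Q111. Tmem132c rose by 3.33 and 3.90 in Q20 and Q50, and Cx3cl1 by 3.56 to 5.07 in the knock-in lines. Ptprk, Cx3cl1 and Tmem132c were called under all 13 alternatives. The other 7 were not called by edgeR, with adjusted p of 0.0633 for Hoxa9 and up to 1 for Bmp5. The calls of Zfp689, Rgcc and Chd3 were also lost without mESC replicate 1 or NPC replicate 1, and those of Zfp689 and Rgcc without mESC replicate 2. Quantile normalization ended those of Zfp689 and Chd3, a pseudocount of 0.5 that of Rgcc, and a mean CPM of at least 5 that of Zfp689.

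Against the mean of the knock-in lines, 330 genes differed, 175 with a greater and 155 with a smaller change in wild type, and 5 a side are named by the same rule. Mageb16 differed by 5.51 (SE 0.71, adjusted p = 0.000547), with 0.79 in wild type and -4.74, -5.19, -4.24 and -4.70 in Q20, Q50, Q92 and Q111. St6gal2 differed by 5.05, Tnc by 5.01, the smooth muscle actin gene Acta2 by 4.67 and the collagen gene Col5a2 by 3.89. Part of this lay in the mESC levels. Tnc had 0.467 and 4.02 CPM in wild-type mESC and 13.2 to 151 in knock-in mESC. Acta2 had 2.15 and 2.98 against 30.5 to 98.1, and Col5a2 2.9 and 3.21 against 16.4 to 40.6. St6gal2 differed more in NPC, at 133 and 58.5 CPM in wild type and 0.413 to 30.2 in the knock-in lines. On the other side stood B3galnt1 at -3.63, Cemip at -3.58, Amer1 at -3.48, Cx3cl1 at -3.43 and Ctsh, which encodes a cathepsin, at -2.94. Tnc rose by 10.71 in wild type, 8.95 in KO and 3.67 to 6.78 in the knock-in lines, and its call was lost without mESC replicate 1, NPC replicate 1 or NPC replicate 2 and with a pseudocount of 5 (adjusted p of up to 0.175). That of Acta2 was lost without mESC replicate 1, mESC replicate 2 or NPC replicate 2, that of Amer1 without either mESC library or NPC replicate 1, with quantile normalization and by edgeR (adjusted p of up to 0.215), and that of Ctsh without mESC replicate 1 or NPC replicate 1. Mageb16, St6gal2, Col5a2, B3galnt1, Cemip and Cx3cl1 were called under all 13 alternatives. Both comparisons use the same wild-type libraries.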

How the results depend on the processing

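The 4243 calls came to 2224 to 3568 when a library was left out and to 7011 with all 24 libraries in the fit. Those higher in NPC (2299) came to 984 to 1855 and 3643, and those lower (1944) to 1031 to 1713 and 3368, or 1262 with a mean CPM of at least 5. A group left with 1 library is assumed to vary like the other. Quantile normalization gave 2094 higher and 2095 lower calls and moved the median change from 0.04 to -0.08. edgeR called 3872 genes (3791 shared) and DESeq2 5295 (4193 shared). With the replicate block 4824 genes were called; the correlation of the replicate differences between the cell types was 0.126, and the numbers are not stated to pair the libraries. Of the list members 229 were called, and 159 to 279 under the alternatives. Over 423 genes in lists or among the largest changes, 0 of 7127 pairs of gene and alternative reversed a call. The alternatives reuse the same wild-type libraries, so this too is a weak test. Calls of named list members were also lost by edgeR (Col6a3, Emx2, Glul, Hk2, Ndn, Neurod1, Nrg1, Ptbp2, Sin3a, Stat3 and Tgfa), with all 24 libraries (Gja1, Glul, Ndn and Srrm4), with a pseudocount of 5 (Aqp4, Cbx8, Ccnd2, Cnp, Eomes, Glul, Gpr17, Hes5, Klf4, Lefty1, Neurod1, S100a4 and Stat3), without a filter (Aqp4, Cbx8, Ccnd2, Cdkn2b, Cnp, Eno1, Glul, Hk2, Klf4, Mbd2, Meis2, Neurod1, Notch3, Nrg1, Stat3, Syp and Tgfa), with quantile normalization (Cdkn2b, Cnp, Mbd2, Ptbp2 and Sox7), with a mean CPM of at least 5 (Nrg1 and Tgfa), with the replicate block (Neurod1) and by DESeq2 (Ndn). The medians of the LIF, neuron, FGF and EGF, DNA methylation, cell cycle and REST lists, all between -0.27 and 0.28, changed sign under at least 1 alternative; the other lists' medians did not.

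The 23 genes that differed from KO came to 40 with a pseudocount of 5, 35 without a filter, 7 with a mean CPM of at least 5, 3 by edgeR, 79 with the replicate block and 16 to 206 with a library left out. The 330 that differed from the knock-in lines came to 199 with a mean CPM of at least 5, 1000 with the replicate block and 165 to 870 with a library left out. The difference of Bmp5 from KO, -3.35, was 1.4 by edgeR (adjusted p = 1), and the cause was not tested. With a pseudocount of 5, the SD between replicates was 0.671 in NPC and 0.586 in mESC. With a mean CPM of at least 5, 154 genes were in the mESC table alone and 45 in the NPC table alone. Beyond the settings that change the genes or libraries used, the causes of these shifts were not tested. With 2 libraries a group, a change that was not called may still be large, as the intervals given show.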
